A study of Homo sapiens with 4 samples.

Results

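TNFAIP3 and 9 partner or functionally related genes were followed in HaCaT keratinocytes given a cytokine mix. The 10 include brakes on NF-kB, ubiquitin-based or not, and genes that help to activate it. They are TNFAIP3 (A20), TNIP1, TNIP2 and TNIP3 (the ABIN proteins), CYLD, ZC3H12A (Regnase-1), BIRC2 and BIRC3 (cIAP1 and cIAP2), TRAF1 and TRAF2. The 10 genes were taken by symbol, and all 10 had a row among the 27356 rows of the deposited tables. HaCaT is an immortalised line of human keratinocytes, so each library comes from 1 line. The M5 group (2 libraries) received oncostatin M, TNF-α and the interleukins 22, 17 and 1α, 5 cytokines given together with 10 μg/L of each, and the PBS group (2 libraries) received phosphate-buffered saline. Treatment began at 50% density and RNA was taken after 72 h. Groups follow the sample titles, since a separate tag gives 25 μM DAC for the M5 libraries, which neither the titles nor the protocols name.

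NF-kB is a family of transcription factors held inactive in the cytoplasm until receptors such as those for TNF and interleukin 1 build chains of ubiquitin on signalling proteins. TRAF and cIAP proteins help to build these chains, which recruit the kinases that free NF-kB. A20 and CYLD remove or edit the chains, the ABIN proteins bind them and bring A20 to its targets, and Regnase-1 cuts mRNAs of inflammatory genes. Several of these genes are themselves NF-kB targets, which makes them a feedback loop, and inherited variants of the genes for A20, ABIN-1 and CYLD are linked to inflammatory or adnexal skin disease.

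Sequence before the annotated starts is shown first for the members whose DNA holds letters that NF-kB recognises. RefSeq lists 18 annotated starts for the 10 genes (build GRCh38.p14), and 250 bases before each start were searched on both strands for the 10-letter NF-kB consensus and for TGACTCA, the AP-1 motif. The consensus lay before at least 1 start of 5 members, TNFAIP3, TNIP1, TNIP3, CYLD and BIRC3. It lay before at least 1 start of 6.28% of all 27305 genes with such a sequence and of 7.98% of the 8150 tested genes among them. Counted by start, it lay before 6 of the 18 starts of the members and 5.21% of all 35116 starts. TGACTCA was found for 0 of the 10 members and 4.10% of those tested genes. A match is a run of letters and not a measured binding site.

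The pair in TNFAIP3 is given as 30 bases (chr6:137867188-137867217, plus strand), which are the first bases of the gene in GENCODE 29. The match of TNIP1 is given as 30 bases (chr5:151081057-151081086, minus strand). It too lies past the point where a GENCODE 29 exon of its gene begins. For TNIP3 (chr4:121227484-121227733, minus strand), BIRC3 (chr11:102317234-102317449, plus strand) and CYLD (chr16:50741836-50742049, plus strand) the bases that precede the first annotated exon are shown. ZC3H12A (chr1:37474330-37474551, plus strand) is added as a member without a match that rose strongly. All run 5′ to 3′, and capitals mark matches to the consensus on either strand.
TNFAIP3: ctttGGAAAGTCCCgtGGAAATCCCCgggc
TNIP1: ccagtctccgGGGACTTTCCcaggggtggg
TNIP3: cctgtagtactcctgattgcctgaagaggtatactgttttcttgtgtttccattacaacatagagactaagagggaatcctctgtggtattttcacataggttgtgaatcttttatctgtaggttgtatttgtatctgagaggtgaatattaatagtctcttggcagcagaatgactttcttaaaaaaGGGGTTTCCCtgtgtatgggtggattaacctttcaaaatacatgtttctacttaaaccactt
BIRC3: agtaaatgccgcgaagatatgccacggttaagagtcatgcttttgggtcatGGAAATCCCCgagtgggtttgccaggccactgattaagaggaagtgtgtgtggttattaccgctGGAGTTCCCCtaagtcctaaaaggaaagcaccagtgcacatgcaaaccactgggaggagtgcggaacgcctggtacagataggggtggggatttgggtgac
CYLD: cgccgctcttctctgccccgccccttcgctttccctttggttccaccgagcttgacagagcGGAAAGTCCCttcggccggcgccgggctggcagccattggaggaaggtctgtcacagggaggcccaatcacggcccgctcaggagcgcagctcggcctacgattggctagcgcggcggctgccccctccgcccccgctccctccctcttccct
ZC3H12A: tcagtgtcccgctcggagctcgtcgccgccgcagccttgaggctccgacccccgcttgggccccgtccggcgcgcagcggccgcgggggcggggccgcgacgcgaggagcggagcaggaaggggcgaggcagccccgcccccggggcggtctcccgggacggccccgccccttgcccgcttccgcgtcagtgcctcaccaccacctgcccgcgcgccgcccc

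The TNFAIP3 pair stands close to the start, with first bases at -67 and -55, counted back from the RefSeq start. The match of TNIP1 begins at -42, and those of TNIP3 at -62 before the printed start and at -61 before another, while those of BIRC3, at -199 and -135, and of CYLD, at -189, lie farther away. The same 10 letters, GGAAAGTCCC, occur in TNFAIP3 and CYLD, and GGAAATCCCC occurs in TNFAIP3 and BIRC3. CYLD holds a match, though not before every annotated start, and rose 1.29-fold. TNIP1 and TNIP3 likewise hold matches before some of their annotated starts and not before others. ZC3H12A holds none in the bases searched and rose 7.63-fold. Whether matches and changes go together was not tested, and the motifs were chosen after the values were seen.

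**Figure D1:**
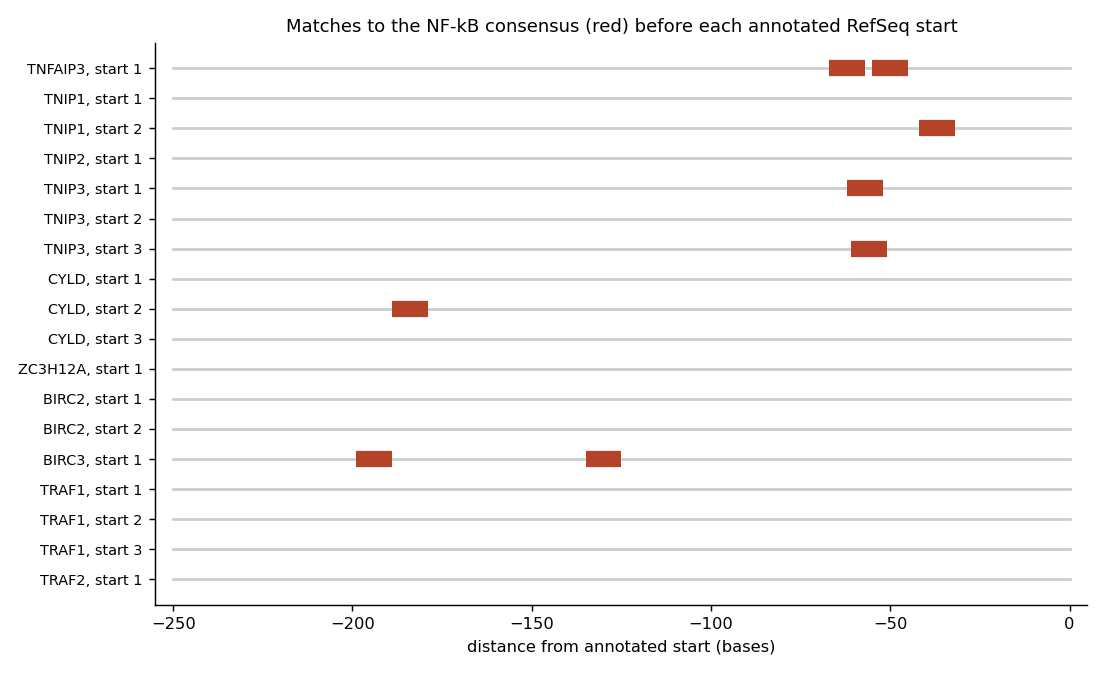
Positions of NF-kB consensus matches (red) in the 250 bases before each of the 18 annotated RefSeq starts of the 10 genes. The horizontal axis is the distance from the start in bases. Matches lie before 6 of the 18 starts, and those of TNFAIP3, TNIP1 and TNIP3 lie nearest to the start.

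The libraries held 18992988 and 19749612 counts in M5 and 15858644 and 16051974 counts in PBS. The keratinocyte markers KRT5, KRT14, TP63, DSG3, CDH1 and SFN were all expressed, with summed levels of 3300 and 3016 FPKM in M5 and 2972 and 2938 FPKM in PBS. Of these 6, 5 were called higher in M5, as were 28.8% of all tested genes. KRT14 rose least of the 5, 1.21-fold. KRT5 was 1.95-fold lower, at 349.5 FPKM in M5 and 756 FPKM in PBS on average. FPKM is the deposited value, the reads of a gene scaled to its length and to the depth of the library. Of the leukocyte markers, PTPRC, LYZ and TYROBP have no row, CD3E had at most 2 counts in any library, and CD14, a receptor for bacterial products, was measurable, at 4.87 ± 0.331 FPKM in M5 and 1.92 ± 0.528 FPKM in PBS (SD, n = 2 each). The most abundant fibroblast, endothelial and melanocyte markers, COL1A1, CDH5 and PMEL, stayed under 1 FPKM on average in both groups. CDH5 was at 0.522 ± 0.143 FPKM in M5 and 0.182 ± 0.0353 FPKM in PBS. Any part of such cells in the results was not tested, and in bulk RNA fewer cells of a type and less RNA per cell cannot be told apart.

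All 10 genes were higher in M5 by edgeR's quasi-likelihood test at an adjusted p under 0.05, where 28.8% of the 10809 genes tested were higher and 27.1% lower, 55.9% in all. In FPKM, 9 of the 10 were higher in both M5 libraries than in both PBS libraries. Of all tested genes 26.8% were higher and 53.6% lower in that way, so that 80.4% did not overlap. Of the 10, 6 rose at least 2-fold, against 6.48% of all tested genes. The median log2 fold change was 1.65 for the 10 genes and -0.01 for all tested genes. TNIP3 and TRAF1 passed the filter, a mean of at least 1 FPKM over the 4 libraries, only through their level in M5, so their difference is partly fixed by it; without a filter the 10 were also all called higher. The balance over all genes depends on the scaling. There were 3114 genes higher and 2929 lower with TMM factors, and 2011 higher and 4767 lower when libraries were scaled to equal TPM totals, where the median of all genes moved to -0.20. TMM factors are 0.945 and 0.951 in M5 and 1.06 and 1.05 in PBS, so a fold change here is slightly larger than the ratio of the FPKM values beside it. The 10 genes together held 0.172% of the counts in both M5 libraries and 0.0507% and 0.0514% in the PBS libraries.

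**Figure D2:**
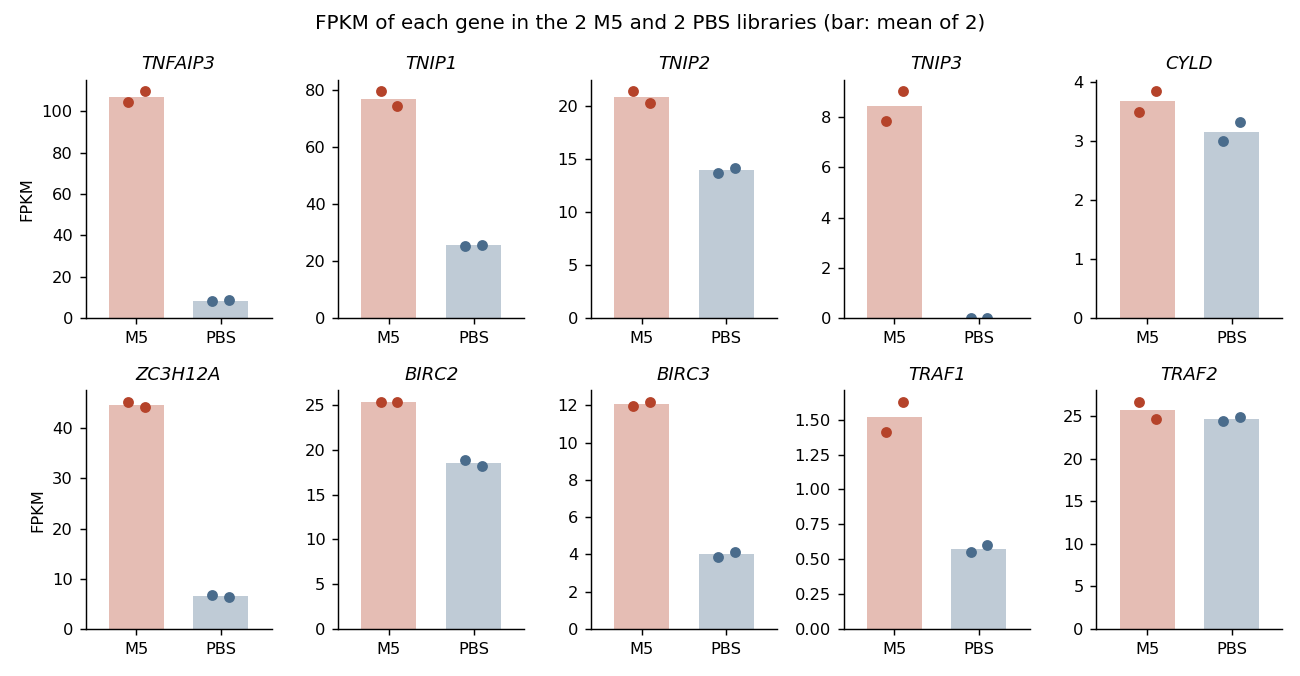
FPKM of each of the 10 genes in the M5 libraries (red, left) and the PBS libraries (blue, right), with points for single libraries and bars for the mean of 2. Each panel has its own axis from 0. The M5 and PBS points are apart for 9 genes and overlap for TRAF2.

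TNFAIP3 encodes A20, an enzyme that both removes and attaches ubiquitin and ends signalling from TNF and interleukin 1 receptors (ENSG00000118503, GRCh38 chromosome 6, 137867188 to 137883312, plus strand). It had 104 and 109.7 FPKM in the M5 libraries, against 8.43 and 8.57 FPKM in the PBS libraries. The M5 libraries lay far above both PBS libraries, and each pair was tight. The rise was 14.0-fold, or 3.81 on the log2 scale (SE 0.06, edgeR adjusted p = 1.20e-19), the 96th largest rise of all tested genes. By level per length it was the first of the 10 genes in M5 and the fifth in PBS. The antisense RNA WAKMAR2 overlaps its exons by 95 bp on the other strand, and the library kit does not mark strand. WAKMAR2 had 312 and 307 counts in M5 and 39 and 26 counts in PBS, between 2.20% and 4.53% of the TNFAIP3 counts of the same library, and rose by a log2 value of 3.12 (SE 0.21, edgeR adjusted p = 2.97e-10), having passed the filter only through M5.

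The 3 ABIN genes differed in level and in change. ABIN proteins bind ubiquitin chains and A20, and ABIN-1, the product of TNIP1, is the best studied of them (ENSG00000145901, chromosome 5, 151029945 to 151093577, minus strand). TNIP1 had 79.6 and 74.3 FPKM in M5, against 25.4 and 25.7 FPKM in PBS. Both M5 libraries were above both PBS libraries, a 3.35-fold rise, or 1.74 on the log2 scale (SE 0.06, edgeR adjusted p = 7.68e-15).

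TNIP2, which encodes ABIN-2, a partner of the kinase TPL2 and of the NF-kB precursor p105 (ENSG00000168884, chromosome 4, 2741648 to 2756376, minus strand), had 21.4 and 20.3 FPKM in M5, against 13.7 and 14.2 FPKM in PBS. The groups did not overlap, and the rise was 1.66-fold (log2 value 0.73, SE 0.08, edgeR adjusted p = 3.01e-07).

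TNIP3 encodes ABIN-3 (ENSG00000050730, chromosome 4, 121131408 to 121227466, minus strand). It had 559 and 669 counts in M5, 7.85 and 9.04 FPKM, and 0 counts in both PBS libraries. Against a floor of 3 counts over the PBS libraries together it was at least 374-fold higher, a bound that covers counting error only. No read of it was counted in PBS at this depth, and both M5 libraries lay far above the floor.

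The summed FPKM of the ABIN genes was 109 and 104 in M5 and 39.1 and 39.9 in PBS. TNIP1 held 73.1% and 71.7% of that sum in M5 and 64.9% and 64.4% in PBS. The share of TNIP2 was 19.7% and 19.6% in M5 and 35.1% and 35.6% in PBS. TNIP3 made up 7.21% and 8.71% in M5 and none of the counted reads in PBS. TNFAIP3 stood at 0.959 and 1.06 times the summed ABIN level in M5, and at 0.215 times in both PBS libraries, per length. These ratios are a description. An exact two-sided permutation test of 2 libraries against 2 cannot go below p = 0.33, and no other test of them was run.

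**Figure D3:**
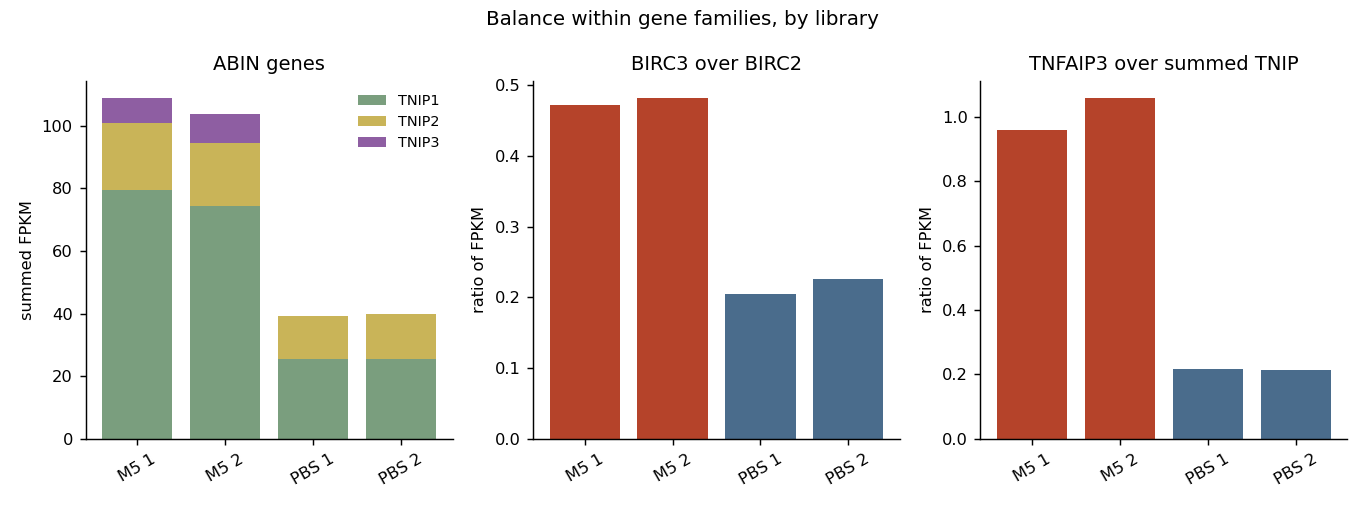
Left, stacked FPKM of TNIP1, TNIP2 and TNIP3 in each library. Middle and right, the FPKM ratio of BIRC3 to BIRC2 and of TNFAIP3 to the summed TNIP genes, with M5 libraries in red and PBS libraries in blue. Both ratios are higher in both M5 libraries, and TNIP3 appears in the M5 bars alone.

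CYLD, a deubiquitinase that removes the non-degradative chains of the pathway and is lost in tumours of the skin appendages (ENSG00000083799, chromosome 16, 50742050 to 50801935, plus strand), changed little. It had 3.49 and 3.84 FPKM in M5, against 2.99 and 3.31 FPKM in PBS. The groups were separate but close, and the rise was 1.29-fold (log2 value 0.37, SE 0.09, edgeR adjusted p = 0.00128). With TPM scaling its log2 value was 0.18 (edgeR adjusted p = 0.0716), so the call depends on the scaling. The FPKM of TNFAIP3 was 29.9 and 28.6 times that of CYLD in M5 and 2.82 and 2.59 times in PBS, again by the deposited length of TNFAIP3.

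ZC3H12A encodes Regnase-1, also called MCPIP1, an RNase that cuts stem-loops in mRNAs of cytokines and other inflammatory genes (ENSG00000163874, chromosome 1, 37474552 to 37484379, plus strand). It had 45.3 and 44.2 FPKM in M5, against 6.75 and 6.27 FPKM in PBS. The M5 libraries were far above the PBS libraries. It rose 7.63-fold (log2 value 2.93, SE 0.07, edgeR adjusted p = 7.39e-17), and was the third of the 10 genes by level in M5.

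The cIAP genes BIRC3 and BIRC2 lie side by side on the plus strand of chromosome 11, with 7807 bp between them. Both encode ubiquitin ligases that join TRAF2 at the TNF receptor and also mark the kinase NIK for degradation. BIRC3 (ENSG00000023445, 102317450 to 102339403) had 11.99 and 12.2 FPKM in M5, against 3.88 and 4.12 FPKM in PBS. Its groups were well apart, and it rose 3.35-fold (log2 value 1.75, SE 0.07, edgeR adjusted p = 1.70e-13).

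BIRC2 (ENSG00000110330, 102347211 to 102378670) had 25.4 and 25.3 FPKM in M5, against 18.9 and 18.2 FPKM in PBS. It rose 1.52-fold, with groups that did not overlap (log2 value 0.60, SE 0.06, edgeR adjusted p = 8.69e-08). BIRC2 remained the more abundant of the pair per length, with a BIRC3 to BIRC2 ratio of 0.473 and 0.482 in M5 and of 0.205 and 0.227 in PBS.

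TRAF1 and TRAF2 are adaptors that carry cIAP proteins to receptors of the TNF family, and TRAF1 lacks the RING domain that TRAF2 has. TRAF1 (ENSG00000056558, chromosome 9, 120902393 to 120929173, minus strand) was the lowest of the 10 genes in M5. It had 1.41 and 1.63 FPKM in M5, from 120 and 144 counts, against 0.549 and 0.598 FPKM in PBS, from 39 and 43 counts. The rise was 2.94-fold, and its error was wide next to that of the abundant members (log2 value 1.55, SE 0.23, edgeR adjusted p = 1.25e-05).

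TRAF2 (ENSG00000127191, chromosome 9, 136881912 to 136926607, plus strand) had 26.7 and 24.7 FPKM in M5, against 24.5 and 25.0 FPKM in PBS. In FPKM the groups overlapped. After TMM scaling they did not, with 105 and 96.0 CPM in M5 and 86.1 and 87.9 CPM in PBS, counts scaled to the library's depth but not to gene length. The rise of 1.15-fold passed the test (log2 value 0.21, SE 0.06, edgeR adjusted p = 0.0104). It did not pass with TPM scaling (0.021, edgeR adjusted p = 0.790), library totals (0.051, adjusted p = 0.499) or without PBS replicate 1 (0.19, adjusted p = 0.0937). The FPKM ratio of TRAF1 to TRAF2 was 0.0528 and 0.0660 in M5 and 0.0224 and 0.0240 in PBS.

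**Figure D4:**
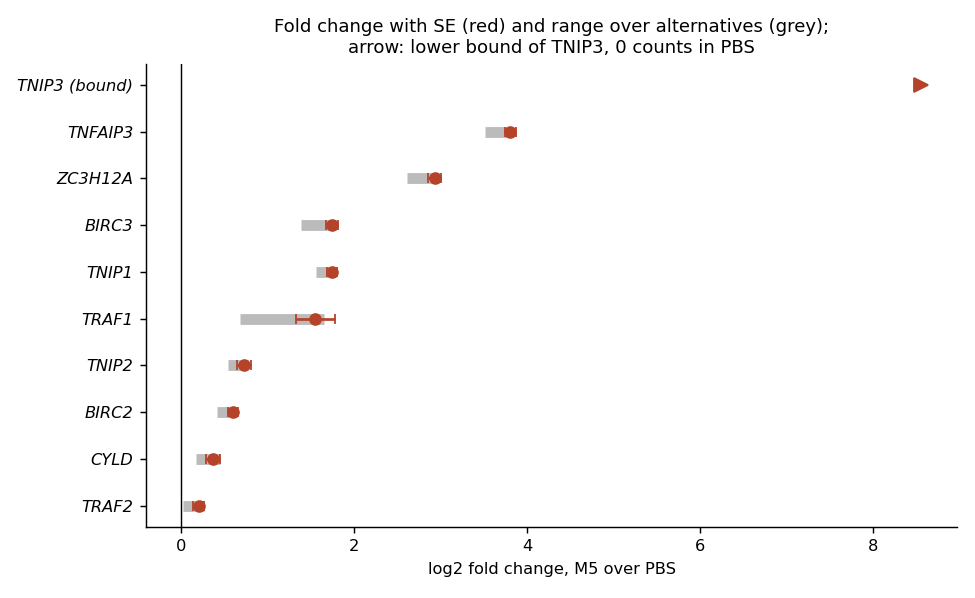
log2 fold change of M5 over PBS for 9 genes, with the standard error (red bars) and the range over the alternative settings (grey). The arrow marks the lower bound of TNIP3, which had 0 counts in PBS. TNFAIP3 and ZC3H12A lie highest of the other 9 at 3.81 and 2.93, and the grey range of TRAF2 begins at 0.021.

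The order of levels was different in the groups. In M5 it ran TNFAIP3, TNIP1, ZC3H12A, TRAF2, BIRC2, TNIP2, BIRC3, TNIP3, CYLD, TRAF1. In PBS it ran TNIP1, TRAF2, BIRC2, TNIP2, TNFAIP3, ZC3H12A, BIRC3, CYLD, TRAF1, with TNIP3 uncounted. TRAF2 and BIRC2 did not differ beyond their spread in M5, with 26.7 and 24.7 FPKM for TRAF2 and 25.4 and 25.3 FPKM for BIRC2. TNFAIP3 alone made up 31.9% and 33.7% of the summed FPKM of the 10 genes in M5 and 8.02% and 8.09% in PBS. TRAF2 made up 8.16% and 7.59% in M5 and 23.3% and 23.6% in PBS.

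The other genes of the pathway were taken from lists. Of 66 genes in 10 lists, 55 were tested, and 30 were higher and 9 lower in M5, against 28.8% and 27.1% of all tested genes. With TPM scaling 17 of the 55 were higher and 11 lower, where 2011 of all 10809 tested genes were higher and 4767 lower. With TMM factors the median log2 fold change of the 55 was 0.19, and 4 of them rose at least 2-fold, against 6.48% of all tested genes. The counts of single lists that follow stand beside the same 28.8% higher and 27.1% lower with TMM factors. No list was tested as a set.

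Among partners of A20 and CYLD, 2 of 4 rose and 0 fell, or 2 and 1 with TPM scaling. TAX1BP1, an adaptor of A20, had 24.4 ± 0.872 FPKM in M5 and 18.4 ± 1.86 FPKM in PBS (SD, n = 2 each; log2 value 0.56). RNF11, another subunit of the A20 complex, rose by a log2 value of 0.52. Of the LUBAC list, the ligase that makes linear chains and its deubiquitinase, the subunit genes SHARPIN and RBCK1 rose by 0.49 and 0.23. RBCK1 was not called with TPM scaling (0.046), library totals (0.076) or without PBS replicate 2 (0.17). Nor was it called by limma on log2(FPKM + 1) (0.074) or log2(FPKM + 0.1) (0.080). With TPM scaling 1 of the 3 tested genes of this list rose and 0 fell. The gene of the catalytic subunit, RNF31, named after its values were seen, had at most 1 count in any library, and its level was not read from these tables.

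Of 6 other deubiquitinases tested, 2 rose and 3 fell, or 1 and 3 with TPM scaling. USP18, which also removes the ubiquitin-like ISG15, had 3.23 ± 0.383 FPKM in M5 and 1.68 ± 0.0647 FPKM in PBS (SD, n = 2 each; log2 value 1.09, SE 0.16, edgeR adjusted p = 1.50e-05). USP21 fell by 0.61 and USP4 by 0.28 on the log2 scale, and USP4 did not pass without PBS replicate 1 (-0.23, edgeR adjusted p = 0.104).

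Of 4 other TRAF genes tested, 3 rose and 1 fell, or 2 and 1 with TPM scaling. TRAF4 rose by 0.57, TRAF3 by 0.48 and TRAF6, the adaptor of interleukin 1 and interleukin 17 receptors, by 0.40. TRAF6 was not called with TPM scaling (0.21) or by limma on log2(FPKM + 1) (0.20) or log2(FPKM + 0.1) (0.24). Of 6 TRAF-binding regulators, 2 rose and 2 fell, also with TPM scaling. TRAF3IP3, best known from lymphocytes, had 2.12 ± 0.190 FPKM in M5 and 0.210 ± 0.0211 FPKM in PBS (SD, n = 2 each; log2 value 3.48, SE 0.21, edgeR adjusted p = 4.51e-11), and passed the filter only through M5. TANK, an adaptor of TBK1, rose by 0.65, and TRAFD1, an inhibitor of innate signalling, fell by 0.83.

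Of 3 other IAP genes tested, 1 rose and 1 fell: XIAP, the caspase inhibitor, at 0.33, and BIRC5, the mitotic protein survivin, at -0.58. XIAP was not called with TPM scaling (0.14), library totals (0.18) or without PBS replicate 2 (0.22). Nor was it called by limma on log2(FPKM + 1) (0.15) or log2(FPKM + 0.1) (0.18). With TPM scaling 0 of these 3 genes rose and 1 fell. The 1 tested IAP antagonist was not called. Of 6 Regnase relatives and partners, 4 rose and 0 fell, or 2 and 0 with TPM scaling. ZC3H12C, a relative of Regnase-1, had 11.2 ± 0.331 FPKM in M5 and 4.99 ± 0.308 FPKM in PBS (SD, n = 2 each; log2 value 1.32). N4BP1, which restrains NF-kB, rose by 0.75, and RC3H2, which encodes Roquin-2, by 0.30. RC3H2 was not called with TPM scaling (0.12) or by limma on log2(FPKM + 1) (0.14) or log2(FPKM + 0.1) (0.15).

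Among 13 genes of the TNF receptor complex and the IKK and TAK1 kinases, 7 rose and 2 fell, or 5 and 2 with TPM scaling. IKBKE, a kinase related to TBK1, had 15.7 ± 0.0369 FPKM in M5 and 7.43 ± 0.205 FPKM in PBS (SD, n = 2 each; log2 value 1.23), and TAB3, which couples chains to TAK1, rose by 0.77. MAP3K14 encodes NIK, a kinase that TRAF2 and cIAP proteins keep low as a protein, and no protein was measured here. The mRNA of MAP3K14 had 3.24 ± 0.328 FPKM in M5 and 7.97 ± 0.319 FPKM in PBS, 2.22-fold lower (SD, n = 2 each; log2 value -1.15, SE 0.10, edgeR adjusted p = 1.39e-08). Of 9 tested genes for ubiquitin and its E2 enzymes, 7 rose and 0 fell with TMM, while 2 rose and 1 fell with TPM scaling. Among them UBB rose by 0.47 and UBE2D1 by 0.41. UBB was at 0.27 without M5 replicate 1 and was not called by limma on log2(FPKM + 1) (0.30, limma adjusted p = 0.0742) or log2(FPKM + 0.1) (0.31, limma adjusted p = 0.0764).

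**Figure D5:**
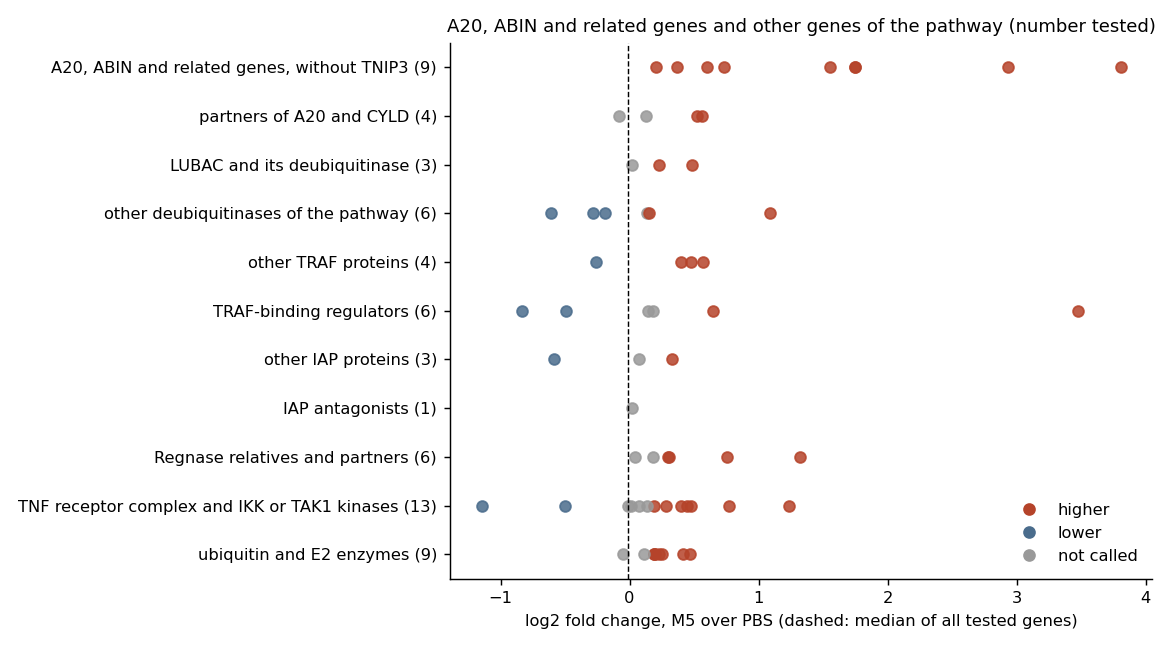
log2 fold change of M5 over PBS for each tested gene of the 10 pathway lists, below the A20, ABIN and related genes without TNIP3. Red points were called higher, blue lower and grey not called, and the dashed line is the median of all tested genes, -0.01. TRAF3IP3 at 3.48 lies apart from the other pathway genes, which stay between -1.15 and 1.32.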

How the data were processed

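RNA sequencing of polyadenylated RNA was measured in 4 libraries. The deposited files hold raw read counts per gene and FPKM, both made by the authors, per the file headers. GRCh38, HTSeq 0.13.5 and HISAT2 appear in the submitters' processing notes, without their roles. For the authors' annotation and strand setting, nothing is stated in the labels or headers. The kit named in the labels' protocols does not mark strand.

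Counts were tested with edgeR 4.0.16 (quasi-likelihood, two-sided, R 4.3.3) with TMM factors on the 10809 genes with a mean of at least 1 FPKM, with Benjamini-Hochberg adjustment over all of them. An adjusted p under 0.05 is called a change. The SE was taken as the absolute log2 value over root F. Totals were 18992988 and 19749612 counts in M5 and 15858644 and 16051974 in PBS. Whether the replicates came from separate cultures is not stated, so every p-value here rests on a spread that may be technical. The median chi-square per gene between replicates was 1.77 in M5 and 1.00 in PBS, where sampling alone gives 0.455, so no pair was treated as copies.

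The members, lists and rules were chosen with earlier results of these data known. Named genes are all members, up to 3 called genes of each pathway list with the largest absolute change, and the most abundant marker of each other cell type. Values of some genes that the rule or the lists hold are not reported here. Positions are from GENCODE 29 (GRCh38) and promoters from RefSeq (GRCh38.p14), where all 10 members matched by symbol. The motifs, WAKMAR2 and RNF31 were chosen after the values were seen. Alternatives used limma 3.58.1 on log2(FPKM + 1) or log2(FPKM + 0.1), DESeq2 1.42.0, other scaling, filters and thresholds, a replicate block and each library left out.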

Additional observations from a re-analysis of the deposited data

How the results depend on the processing

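All 10 members kept a positive log2 fold change in every alternative that could be fitted, and 8 kept their call. The count of members called was 8 with TPM scaling and with both limma fits, 9 with library totals and at an adjusted p under 0.01, and 7 of the 7 that pass a mean of at least 5 FPKM, which leaves out TNIP3, CYLD and TRAF1. It ranged from 9 to 10 with each library left out and was 0 lower throughout. TRAF2 was not called with library totals (0.051), TPM scaling (0.021) or an adjusted p under 0.01 (0.21). Nor was it called by limma on log2(FPKM + 1) (0.051) or log2(FPKM + 0.1) (0.053), or without PBS replicate 1 (0.19). Its log2 value ranged from 0.15 to 0.27 with each library left out. CYLD was not called with TPM scaling (0.18) or limma (0.17 and 0.21 with pseudocounts of 1 and 0.1). The median of all genes was -0.01 with TMM, -0.17 with totals and -0.20 with TPM. The fold change of TNIP3 depends on the prior count or pseudocount (3.24 to 12.28), so its bound is reported. TRAF1 ranged from 0.68, in limma on log2(FPKM + 1), to 1.65. Of all tested genes 2183 were higher and 4492 lower with totals, 2011 and 4767 with TPM scaling, 2010 and 4122 with limma on log2(FPKM + 1), and 2005 and 4098 on log2(FPKM + 0.1), and with each library left out 2630 to 3123 were higher and 2323 to 2894 lower. Of the pathway genes 19 were higher with totals, 17 with TPM scaling and 15 with each limma fit, and 24 to 34 with each library left out, where 7 to 10 were lower. The cause was not tested. Of the 24 named pathway genes, 17 kept their call in every alternative and 0 changed direction. The replicate numbers only name the libraries. With them as a block (replicate block), 3134 genes were higher and 2959 lower, 10 members were called, and 30 pathway genes were higher and 9 lower; replicate deviations of the groups correlated at -0.017 across genes. Depth limits TNIP3 (0 counts in PBS) and TRAF1 (39 and 43 counts in PBS).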
